A study of Mus musculus with 52 samples.

Results

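The genes described here are 35 mouse genes of glycolysis and glycogen metabolism, out of 55401 mouse genes in the table of counts. They were taken by name from a list that covers the steps from glucose to pyruvate, lactate dehydrogenase, glucose entry, and the making and breaking of glycogen. All 35 were found in the table. The rule uses no measured value, though the list was proposed with earlier results of these data known. Spinal cord and cortex fits each tested 34 of them, because Fbp2 was too low there, and the muscle fit tested 35.

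RNA with a poly(A) tail was sequenced from muscle, spinal cord and cerebral cortex of mice. The first arm was transgenic for human profilin-1 with the amyotrophic lateral sclerosis mutation C71G (PFN1 C71G) and was given an AAV vector (an adeno-associated virus) with an artificial microRNA against Atxn2 (the amiR arm). The second arm carried the same transgene and was given vehicle. The third arm was wild-type FVB/NJ mice given vehicle. No arm was given a vector without the amiR, so effects of the vector and of the amiR cannot be told apart. The arms had 6 libraries each in spinal cord, 6, 6 and 5 in cortex, and 6, 5 and 6 in muscle, in the order amiR, PFN1 vehicle and wild type. Of the 52 libraries, 41 came from mice of 36 weeks and 11, all transgenic, from mice of 38 or 39 weeks. Males and females were present in every group. The promoter that drives the transgene, the muscle sampled and any pairing of tissues from 1 animal are not given in the sources used here.

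Glycolysis splits glucose into pyruvate in the cytosol and yields ATP without oxygen, and glycogen is the branched glucose store that feeds it. Fast-twitch muscle fibres hold large stores of glycogen and rely on glycolysis in short bursts, whereas slow-twitch fibres and neurons depend more on mitochondria, and in the brain glycogen lies mainly in astrocytes. Many steps have several isozymes from separate genes: Pfkm, Pgam2, Eno3, Pygm, Hk2 and Slc2a4 are known as muscle forms, Eno2 (neurons), Aldoc (astrocytes) and Pygb as brain forms, and Hk1, Pgam1, Eno1 and Slc2a1 are found in most tissues.

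Library totals ranged from 66.5 to 111.9 M counts. Counts were scaled by the trimmed mean of M-values (TMM) within each tissue and are given as CPM, counts over the scaled library total in M counts. A gene was called where its Benjamini-Hochberg adjusted p, over all genes of the fit, was under 0.05 in edgeR's quasi-likelihood F test with arm and sex. The SE after a log2 fold change is that of the fit. Atxn2 differed between amiR and PFN1 vehicle by −0.55 in spinal cord (log2, adjusted p = 8.14e-08, edgeR), by −0.27 in cortex (adjusted p = 0.187) and by 0.04 in muscle (adjusted p = 0.757). The vector's WPRE element had 3200 to 6991 counts in amiR spinal cord libraries and 1 to 5 counts in amiR muscle libraries. In amiR cortex libraries it had 2103 to 5878 counts. For 4 libraries of spinal cord (PFN1 vehicle replicates 5 and 6, amiR replicates 1 and 2), vehicle or amiR as read from the title conflicts with the name of the library. Counts of the WPRE element matched the titles, which were used. Spinal cord amiR replicate 2 stood apart: its 4 adipocyte markers summed to 218 CPM, against at most 22.8 CPM in any other spinal cord library, and its 11 fast fibre markers to 670 CPM, against at most 146 CPM. Spinal cord PFN1 vehicle replicate 1 held the 22.8 CPM. Counts of members and the values of some members without amiR replicate 2 are given beside the spinal cord results. Marker lists and other pathway genes were not refitted without that library.

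At several steps, RNA of different isozymes prevailed in wild-type muscle and in wild-type nervous tissue. In muscle, 23 members were higher than in spinal cord and 10 lower in the joint fit of all tissues, where 83.5% of 22316 genes were called, 36.2% higher and 47.3% lower. The largest differences among muscle forms were in phosphoglycerate mutase 2, Pgam2, which moves the phosphate before enolase acts, with a log2 fold change of 12.22 ± 0.95 (SE, adjusted p = 6.33e-16, edgeR), and in Eno3, muscle β-enolase, with 10.64 ± 0.32 (adjusted p = 3.21e-31). Aldoc, the aldolase of astrocytes, was −11.74 ± 0.17 (adjusted p = 2.61e-42), and Eno2, neuronal enolase, −7.92 ± 0.16 (adjusted p = 8.95e-38). Pygl (−0.85 ± 0.47, adjusted p = 0.0899), the liver form of phosphorylase, and Ldhb (−0.32 ± 0.19, adjusted p = 0.124) did not pass the test. Against cortex, 24 members were higher in muscle and 10 lower, where 84.1% of genes were called, 35.6% higher and 48.5% lower. Without TMM scaling, the median of all genes in muscle over spinal cord moved to −1.55 from −0.33, and Pfkfb3 changed sign to −0.03.

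**Figure D1:**
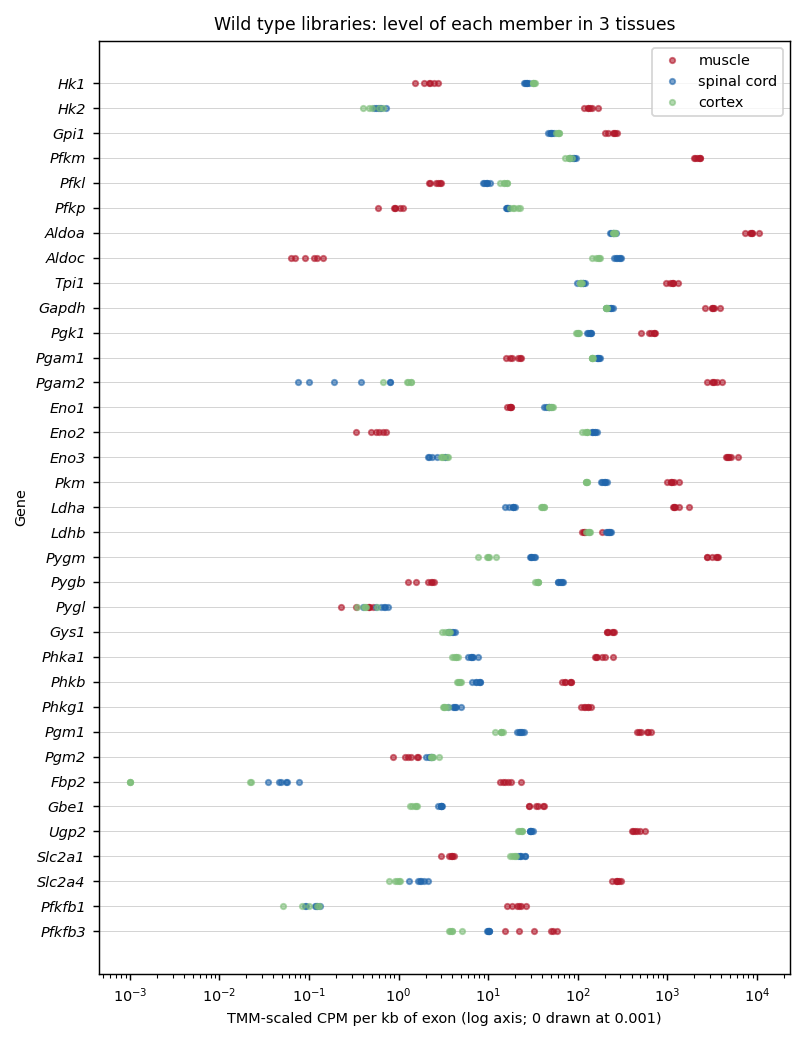
Level of each of the 35 members in wild-type libraries of muscle, spinal cord and cortex (n = 6, 6 and 5), as TMM-scaled CPM per kilobase of exon on a log axis, 1 point a library. Eno3 lies near 5070 in muscle and near 2.66 in spinal cord, whereas Aldoc lies near 0.1 in muscle and near 283 in spinal cord.

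Levels of different genes were compared per kilobase of exon, as TMM-scaled CPM per kilobase in the joint scaling. Aldoa, the aldolase that splits fructose bisphosphate, was the highest member in wild-type muscle at 8790 ± 1050 (SD, n = 6). It was followed by Eno3 at 5070 ± 600, by Pgam2 at 3380 ± 447, by Pygm at 3280 ± 407 and by Gapdh at 3250 ± 399. The last 3 levels did not differ beyond their spread. In wild-type spinal cord the order was Aldoc at 283 ± 19.3, Aldoa at 247 ± 13.7, Gapdh at 228 ± 14.6, Ldhb at 222 ± 11 and Pkm at 199 ± 11.4, with Gapdh and Ldhb within their spread of each other. In wild-type cortex it was Aldoa at 254 ± 5.87, Gapdh at 211 ± 3.88, Aldoc at 165 ± 12.8 and Pgam1 at 145 ± 2.59 (SD, n = 5). These orders depend on the exon lengths used. Without length, wild-type spinal cord had 1200 to 1400 CPM of Pkm, 1110 to 1340 of Gapdh, 1100 to 1310 of Aldoc and 875 to 1020 of Aldoa. Wild-type muscle then had 6690 to 9530 CPM of Gapdh and 4770 to 6340 of Eno3, with Aldoa still highest. Wild-type cortex had 1060 to 1120 CPM of Gapdh and 899 to 945 of Aldoa.

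The share of each isozyme in the summed level of its enzyme (per kilobase, no test) shows the same split. Eno3 made up 99.6 ± 0.033% of enolase in wild-type muscle, against 1.32 ± 0.253% in spinal cord, where Eno2 made up 75.6 ± 0.614%. Pgam2 held 99.4 ± 0.108% of phosphoglycerate mutase in muscle and 0.231 ± 0.199% in spinal cord. Hk2, the insulin-responsive hexokinase, held 98.4 ± 0.36% in muscle and 2.21 ± 0.307% in spinal cord. The insulin-responsive glucose transporter Slc2a4 held 98.7 ± 0.0821% of the 2 transporters in muscle, and Slc2a1, the transporter of the blood-brain barrier, held 93.1 ± 0.803% in spinal cord.

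Other enzymes were mixed in nervous tissue. Pfkm, named for muscle, was also the main phosphofructokinase in spinal cord at 77.5 ± 0.554% and in cortex at 69.2 ± 0.845%. Without length, Pfkm held 51.3 ± 0.949% in spinal cord, but in cortex it held 41.7 ± 0.763% against 42.3 ± 2.09% for Pfkp, so there it was not above Pfkp. The merged exons of Pfkp span 13401 bases and those of Pfkm 3340. Pygm, muscle phosphorylase, held 32.5 ± 0.721% of phosphorylase in spinal cord and 21.6 ± 2.82% in cortex, and spinal cord was higher than cortex by 1.78 ± 0.14 on the log2 scale (adjusted p = 9.06e-15, edgeR). Ldha, the lactate dehydrogenase subunit that favours lactate formation, held 89.8 ± 3.28% of the dehydrogenase in muscle, 7.56 ± 0.362% in spinal cord and 23.6 ± 0.789% in cortex. Without length it held 94.8 ± 1.76%, 14.7 ± 0.651% and 39.4 ± 1.05%. The merged exons of Ldha span 3310 bases and those of Ldhb 1570. Between wild-type spinal cord and cortex, 16 members were higher in spinal cord and 5 lower, where 54.5% of genes were called, 26.7% higher and 27.8% lower. Ldha was lower in spinal cord by −1.12 ± 0.15 (adjusted p = 3.59e-08, edgeR), and Pfkfb3, which makes the phosphofructokinase activator fructose 2,6-bisphosphate, was higher by 1.29 ± 0.25 (adjusted p = 2.59e-05). The near-identical annotated copy of Eno1 took 19.3% to 23.4% of the counts of both in every library, so the level of Eno1 is uncertain.

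The bases just before the start are shown for muscle forms that moved with the transgene in muscle (Pygm, Pgam2 and Fbp2) and for forms of the same enzymes that were not called (Pygb and Pgam1), a set chosen after values and motif matches were seen. Each is 200 bases long and ends at the base before the RefSeq start (GRCm38.p6), read 5′ to 3′ on the gene's strand. Capitals mark CAGCTG, an E-box of the kind that myogenic factors are known to bind, which reads the same on both strands.
Pygm (chr19:6384208-6384407, + strand): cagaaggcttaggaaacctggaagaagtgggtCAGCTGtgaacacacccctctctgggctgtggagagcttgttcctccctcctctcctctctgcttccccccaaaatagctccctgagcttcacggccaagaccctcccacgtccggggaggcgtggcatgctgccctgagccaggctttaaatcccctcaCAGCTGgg
Pygb (chr2:150786596-150786795, + strand): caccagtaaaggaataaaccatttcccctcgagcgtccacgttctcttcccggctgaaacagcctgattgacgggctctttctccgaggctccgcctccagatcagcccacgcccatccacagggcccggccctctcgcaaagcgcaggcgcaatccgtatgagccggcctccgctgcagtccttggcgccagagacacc
Pgam2 (chr11:5803797-5803996, - strand): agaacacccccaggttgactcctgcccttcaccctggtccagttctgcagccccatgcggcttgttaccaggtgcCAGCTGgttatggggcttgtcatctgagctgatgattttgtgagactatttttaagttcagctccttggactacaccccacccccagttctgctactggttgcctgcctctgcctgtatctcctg
Pgam1 (chr19:41911671-41911870, + strand): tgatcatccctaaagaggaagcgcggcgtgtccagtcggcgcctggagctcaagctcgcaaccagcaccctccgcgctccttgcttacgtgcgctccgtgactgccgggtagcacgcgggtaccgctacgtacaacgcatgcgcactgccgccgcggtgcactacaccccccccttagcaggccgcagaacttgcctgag
Fbp2 (chr13:62858401-62858600, - strand): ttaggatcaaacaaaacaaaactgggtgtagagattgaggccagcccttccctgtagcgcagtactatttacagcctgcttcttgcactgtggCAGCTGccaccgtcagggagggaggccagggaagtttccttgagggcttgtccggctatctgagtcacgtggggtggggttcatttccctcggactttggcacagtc
The Pygm window held CAGCTG at 168 and 8 bases before the start, Pgam2 at 125 and Fbp2 at 107, and the windows of Pygb and Pgam1 held none. In the 250 bases before the start, CAGCTG occurred in 9 of 50 promoters of the members (18%), from 9 of 34 genes, and in 13% of all 32851 promoters, from 14.7% of all genes. Eno3, Pfkm, Hk2, Aldoa and Ldha, which also fell in muscle, held none. ACGTG, the core of the site of hypoxia-inducible factors, searched on both strands, occurred in 19 of the 50 (38%), from 16 of 34 genes, and in 16.6% of all promoters, from 18.5% of all genes. A match describes these letters alone, and binding was not measured. Slc2a4 was not among the promoters.

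In muscle, the transgene went with lower levels of most of the pathway. Of 35 members, 22 were lower in PFN1 vehicle than in wild-type muscle and 6 higher, where 50.5% of 16949 genes were called in either direction, 24.8% lower and 25.7% higher. The median log2 fold change was −0.8 over the members and 0.01 over all genes tested. Together the members took 2.71% to 3.49% of mouse counts in the PFN1 vehicle libraries, against 4.77% to 5.42% in the wild-type libraries. In 21 members every PFN1 vehicle library lay below every wild-type library and in 4 above, and 28.9% of all genes were apart in this way. Fewer muscle fibres and less of these RNAs per fibre cannot be told apart in bulk tissue.

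**Figure D2:**
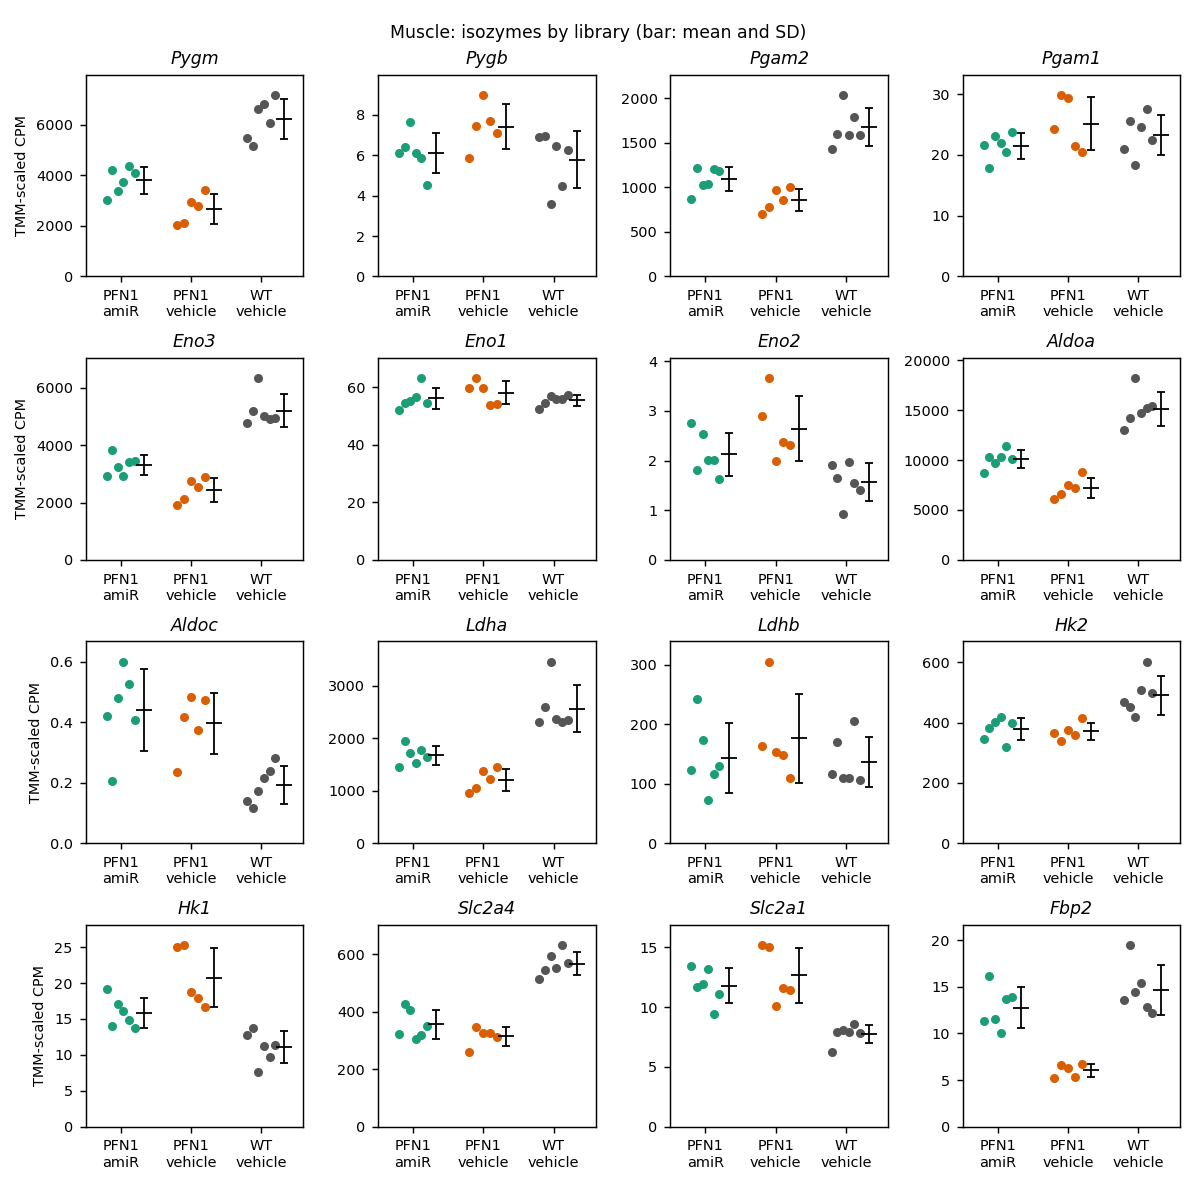
Isozyme genes in muscle as TMM-scaled CPM, 1 point a library, for PFN1 amiR (n = 6), PFN1 vehicle (n = 5) and wild-type vehicle (n = 6); the bar is the mean with its SD, and each axis starts at 0. Pygm, Pgam2, Eno3, Aldoa and Ldha lie lower in PFN1 vehicle than in wild type without overlap, whereas Hk1 and Slc2a1 lie higher.

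Genes of glycogen breakdown fell. Phka1, the muscle α subunit of phosphorylase kinase, had 179, 158, 204, 209 and 262 CPM in the PFN1 vehicle libraries, against 581 to 915 CPM (median 653) in wild type. All PFN1 vehicle libraries were below all wild-type libraries, and the log2 fold change was −1.79 ± 0.15 (SE, adjusted p = 1.68e-07, edgeR). Phkg1, the catalytic γ subunit, fell by 1.34 ± 0.13 (adjusted p = 8.31e-07), and Phkb, the β subunit, by 0.95 ± 0.10 (adjusted p = 9.26e-07). Their substrate Pygm, which releases glucose 1-phosphate from glycogen, had 2050, 2130, 2960, 2790 and 3430 CPM in PFN1 vehicle and 5170 to 7190 CPM (median 6350) in wild type, with no overlap. It fell by 1.27 ± 0.11 (adjusted p = 2.55e-07, edgeR). Pgm1, which turns glucose 1-phosphate into glucose 6-phosphate, fell by 1.23 ± 0.12 (adjusted p = 5.93e-07).

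Of the genes of glycogen synthesis, Gys1 and Ugp2 fell and Gbe1 did not pass the test. Gys1, muscle glycogen synthase, had 410, 538, 433, 446 and 445 CPM in PFN1 vehicle, against 612 to 726 CPM (median 640) in wild type, and fell by 0.52 ± 0.08 (adjusted p = 3.72e-05, edgeR). Ugp2, which makes the UDP-glucose it uses, fell by 0.51 ± 0.10 (adjusted p = 0.000439). Gbe1, the branching enzyme, had 94.2 to 128 CPM in PFN1 vehicle and 88.5 to 129 CPM in wild type, and its ranges overlapped (log2 fold change −0.01 ± 0.10, adjusted p = 0.964).

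Every step of the common pathway had at least 1 lower gene. Pfkm, the committing step, had 1680, 1980, 2370, 2370 and 2710 CPM in PFN1 vehicle, against 3920 to 4550 CPM (median 4370) in wild type, with no overlap. It fell by 0.98 ± 0.08 (adjusted p = 2.34e-07, edgeR). Aldoa fell by 1.08 ± 0.10 (adjusted p = 5.7e-07), Eno3 by 1.10 ± 0.12, Tpi1, which interconverts the triose phosphates, by 1.03 ± 0.11, Pgam2 by 0.98 ± 0.11 and Gapdh by 0.88 ± 0.10. Gpi1 (glucose 6-phosphate isomerase) and Pgk1 (the first ATP-forming step) each fell by 0.80, and Pkm, pyruvate kinase, by 0.76 ± 0.09. Ldha had 964, 1050, 1370, 1220 and 1460 CPM in PFN1 vehicle and 2310 to 3460 CPM (median 2360) in wild type, and fell by 1.08 ± 0.13 (adjusted p = 5.95e-06, edgeR). Fbp2, the muscle fructose bisphosphatase that works against phosphofructokinase, had 5.23, 6.59, 6.31, 5.3 and 6.71 CPM in PFN1 vehicle, against 12.2 to 19.5 CPM (median 14.1) in wild type, and fell by 1.27 ± 0.14 (adjusted p = 1.44e-06). Both Pfkfb genes among the members, which regulate phosphofructokinase, fell. Pfkfb3 fell by 1.63 ± 0.33 (adjusted p = 0.000675) and Pfkfb1 by 0.82 ± 0.17 (adjusted p = 0.000693). Pfkfb3 was spread widely, at 32.7, 23.4, 44, 76.9 and 140 CPM in PFN1 vehicle and 66.9 to 270 CPM in wild type, and its groups overlapped.

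The isozymes that are minor in muscle did not follow. Hk1, the hexokinase of most tissues, had 25, 25.3, 18.8, 17.9 and 16.7 CPM in PFN1 vehicle, against 7.63 to 13.7 CPM (median 11.3) in wild type, with no overlap, and was higher by 0.92 ± 0.13 (adjusted p = 2.17e-05, edgeR). In the same libraries Hk2 fell by 0.41 ± 0.08 (adjusted p = 0.000567). Slc2a1 had 15.2, 15, 10.1, 11.6 and 11.4 CPM in PFN1 vehicle and 6.25 to 8.56 CPM in wild type, and was higher by 0.71 ± 0.11 (adjusted p = 5.79e-05), whereas Slc2a4 fell by 0.85 ± 0.10 (adjusted p = 2.93e-06). Eno2 was higher by 0.75 ± 0.19 (adjusted p = 0.00288), Pygl by 0.75 ± 0.22 (adjusted p = 0.0106), Aldoc by 1.01 ± 0.24 (adjusted p = 0.00199) and Pfkl, the liver phosphofructokinase, by 0.19 ± 0.07 (adjusted p = 0.0401). These levels stayed low for Eno2, Pygl and Aldoc. Eno2 had 1.99 to 3.66 CPM in PFN1 vehicle, against 0.917 to 1.97 CPM in wild type. Pygl had 2.23 to 3.06 CPM, against 0.923 to 2.03 CPM. Aldoc stayed at 0.235 to 0.483 CPM in PFN1 vehicle, against 0.116 to 0.283 CPM in wild type. Pgam1 (0.11 ± 0.12), Eno1 (0.07 ± 0.06), Pygb (0.37 ± 0.17), Pfkp (0.11 ± 0.14), Ldhb (0.35 ± 0.26) and Pgm2 (0.39 ± 0.18) did not pass the test.

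Among the shares, Eno3 held 99.2 ± 0.195% of enolase in PFN1 vehicle muscle, against 99.6 ± 0.033% in wild type, and Hk2 96.2 ± 0.929% of hexokinase against 98.4 ± 0.36%. The share of Ldha was 76.5 ± 9.29% in PFN1 vehicle and 89.8 ± 3.28% in wild type, and without length 87 ± 5.98% and 94.8 ± 1.76%. Ldhb, the heart subunit of lactate dehydrogenase, had 164, 305, 154, 148 and 110 CPM in PFN1 vehicle and 107 to 205 CPM (median 113) in wild type, with overlapping groups.

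Other muscle markers moved in the same libraries. Of 11 fast fibre markers 9 were lower and 1 higher in PFN1 vehicle than in wild type, with summed levels of 56300 to 85000 CPM in PFN1 vehicle and 113000 to 144000 CPM in wild type. All 8 slow fibre markers were higher, with sums of 454 to 3760 CPM in PFN1 vehicle and 111 to 364 CPM in wild type, and so were all 11 markers of denervated fibres, with sums of 1070 to 1870 CPM against 63.7 to 97.8 CPM. All 8 macrophage markers were higher, at 47.4 to 54.7 CPM in PFN1 vehicle and 7.33 to 29 CPM in wild type. So were all 4 fibroblast markers, at 860 to 1810 CPM against 220 to 671 CPM. Their part in the change of the members was not tested. Without TMM scaling the median of all genes moved by 0.35 on the log2 scale, and 20 members were lower and 13 higher. Hk2 then had −0.08 (adjusted p = 0.396), Ugp2 −0.17 (adjusted p = 0.113) and Gbe1 0.33 (adjusted p = 0.0126, edgeR).

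In muscle, the amiR arm was higher than PFN1 vehicle in 8 members and lower in none, where 1.12% of genes were called, 0.767% higher and 0.354% lower. This comparison and the one with wild type share the PFN1 vehicle libraries, in every tissue. Atxn2 itself differed by 0.04 between these arms of muscle (log2, adjusted p = 0.757, edgeR). The median over the members was 0.32 on the log2 scale and 0 over all genes. Fbp2 had 10.1 to 16.2 CPM (median 12.6) in amiR libraries, against 5.23, 6.59, 6.31, 5.3 and 6.71 CPM in PFN1 vehicle. All amiR libraries were above all PFN1 vehicle libraries, and the log2 fold change was 1.07 ± 0.13 (adjusted p = 0.0072, edgeR). Phka1 had 266 to 410 CPM (median 327) in amiR and 158 to 262 CPM (median 204) in PFN1 vehicle, also without overlap, and was higher by 0.72 ± 0.14 (adjusted p = 0.0343). Pygm had 3010 to 4390 CPM (median 3920) in amiR and 2050 to 3430 CPM (median 2790) in PFN1 vehicle, with overlapping groups, and was higher by 0.56 ± 0.11 (adjusted p = 0.0308).

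The other called members were Pgm1 (0.58 ± 0.12, adjusted p = 0.0363), Aldoa (0.50 ± 0.10, adjusted p = 0.0365), Gpi1 (0.40 ± 0.08, adjusted p = 0.0365), Gapdh (0.44 ± 0.10, adjusted p = 0.042) and Pfkfb3 (1.52 ± 0.33, adjusted p = 0.0407), all by edgeR. Eno3, at 2930 to 3850 CPM in amiR and 1910, 2110, 2760, 2540 and 2880 CPM in PFN1 vehicle, did not overlap either but missed the threshold (0.45 ± 0.12, adjusted p = 0.0609). In all, 3 members had every amiR library above every PFN1 vehicle library, where 2.33% of all genes were apart. Of the members that were higher with the transgene, none was called between these arms. Hk1 had 13.8 to 19.1 CPM in amiR and 16.7 to 25.3 CPM in PFN1 vehicle (−0.40 ± 0.13, adjusted p = 0.113). Slc2a1 had 9.4 to 13.4 CPM in amiR and 10.1 to 15.2 CPM in PFN1 vehicle. Aldoc had 0.205 to 0.6 CPM in amiR and 0.235 to 0.483 CPM in PFN1 vehicle. In the fast fibre list 4 of 11 markers were higher in amiR, with sums of 79200 to 97400 CPM in amiR and 56300 to 85000 CPM in PFN1 vehicle. With edgeR none of 8 slow fibre and none of 11 denervated fibre markers was called, and 2 and 3 of them had a raw p under 0.05. Of 4 fibroblast markers 1 was lower in amiR, with sums of 322 to 784 CPM in amiR and 860 to 1810 CPM in PFN1 vehicle. None of 8 macrophage markers was called with edgeR and 5 had a raw p under 0.05, with sums of 17.3 to 41.8 CPM in amiR and 47.4 to 54.7 CPM in PFN1 vehicle. Neither sum overlapped between the arms. The part of these markers in the change was not tested.

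Single libraries moved this count. Leaving out PFN1 vehicle replicate 1 left 0 members and 0 genes called, leaving out replicate 2, 3 or 4 of that arm left 1 member, and leaving out replicate 5 gave 16, with 344 genes called in all. Leaving out amiR replicate 5 or 6 left 1, replicate 2 or 3 left 2 and replicate 4 left 4, and leaving out wild-type replicate 3 gave 18, with 965 genes called in all. As reported, 190 of 16949 genes were called. With mice of 36 weeks alone 0 members were called, and without sex in the model 1. Fbp2 lost its call in 2 of 29 alternatives.

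Treated muscle still differed from wild type. In the amiR arm 20 members were lower than in wild type and 3 higher, where 35.2% of genes were called, 17.7% lower and 17.5% higher. The members took 3.44% to 4.17% of mouse counts in amiR, against 4.77% to 5.42% in wild type. Pfkm had 2450 to 2890 CPM (median 2780) in amiR and 3920 to 4550 CPM (median 4370) in wild type, with no overlap, and was lower by −0.64 ± 0.08 (adjusted p = 1.41e-05, edgeR). Phka1 was lower by −1.07 ± 0.14 (adjusted p = 1.79e-05), Slc2a4 by −0.67 ± 0.09 (adjusted p = 3.28e-05), Pygm by −0.71 ± 0.10 (adjusted p = 5.82e-05) and Gys1 by −0.48 ± 0.07 (adjusted p = 9.55e-05). Slc2a1 (0.60 ± 0.11, adjusted p = 0.000347), Aldoc (1.20 ± 0.23, adjusted p = 0.000594) and Hk1 (0.52 ± 0.12, adjusted p = 0.00352) were higher. Fbp2 had 10.1 to 16.2 CPM in amiR and 12.2 to 19.5 CPM in wild type, and the difference did not pass (−0.20 ± 0.12, adjusted p = 0.23). Pfkfb3 did not pass either, at 54.9 to 271 CPM in amiR and 66.9 to 270 CPM in wild type (−0.11 ± 0.30, adjusted p = 0.809). In the same libraries 9 of 11 fast fibre markers were lower in amiR, with sums of 79200 to 97400 CPM in amiR and 113000 to 144000 CPM in wild type. All 8 slow fibre markers were higher, at 426 to 2320 CPM in amiR and 111 to 364 CPM in wild type, and so were all 11 markers of denervated fibres, at 326 to 1340 CPM against 63.7 to 97.8 CPM. Of 8 macrophage markers 3 were higher, at 17.3 to 41.8 CPM in amiR and 7.33 to 29 CPM in wild type. The part of these markers was not tested.

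**Figure D3:**
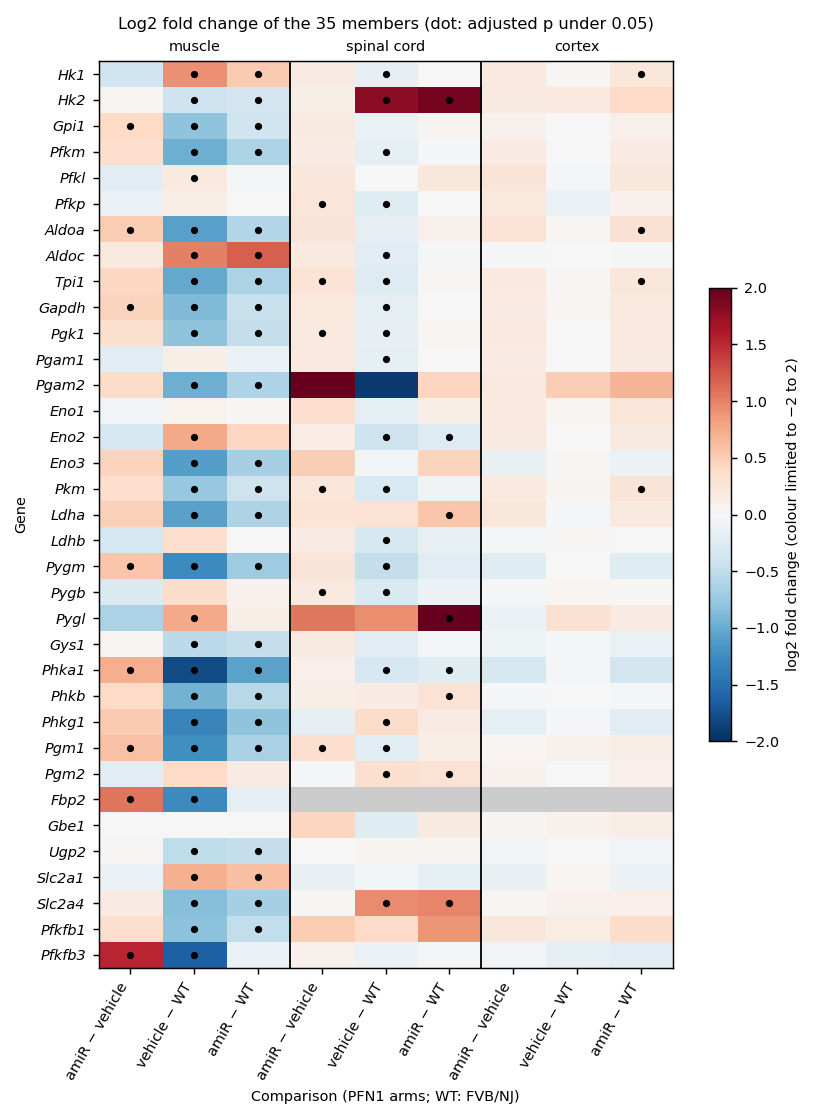
Log2 fold change of the 35 members in muscle, spinal cord and cortex for amiR minus PFN1 vehicle, PFN1 vehicle minus wild type and amiR minus wild type; a dot marks an adjusted p under 0.05, grey marks Fbp2 where it was not tested, and colours stop at −2 and 2. Muscle has 22 lower members with the transgene, and no member of cortex has a dot in that comparison.

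In spinal cord, neuronal and brain isozymes were among the members lower with the transgene, and Hk2 and Slc2a4 among those higher. Of 34 members, 15 were lower in PFN1 vehicle than in wild type and 4 higher, where 36.8% of 20307 genes were called, 17.9% lower and 18.8% higher. The median was −0.17 over the members and 0 over all genes. Without amiR replicate 2 in the fit, 19 were lower and 7 higher, with Hk2 at 1.77 (adjusted p = 4.79e-08, edgeR), Slc2a4 at 0.95 (adjusted p = 0.000159), Eno2 at −0.41 (adjusted p = 9.52e-05) and Pygb at −0.32 (adjusted p = 1.96e-05). Without TMM scaling, 7 were lower and 6 higher, and the median of all genes moved by 0.10. With the treatments of the library names in place of the titles 9 were called, 3 lower and 6 higher.

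Hk2 had 14.3 to 19.1 CPM (median 15.5) in PFN1 vehicle and 4.11 to 5.54 CPM (median 4.63) in wild-type spinal cord. No PFN1 vehicle library was as low as any wild-type library, and the log2 fold change was 1.79 ± 0.32 (adjusted p = 0.000265, edgeR). Slc2a4 had 12.4 to 19.2 CPM (median 15) in PFN1 vehicle and 6 to 9.48 CPM (median 8) in wild type, without overlap, and was higher by 0.94 ± 0.25 (adjusted p = 0.00608). Both are the insulin-responsive forms and fell in muscle. Hk2 held 7.93 ± 1.06% of hexokinase in PFN1 vehicle spinal cord, against 2.21 ± 0.307% in wild type, and Slc2a4 13.1 ± 1.63% of the 2 transporters against 6.9 ± 0.803%. Pgm2, which acts on pentose and hexose phosphates (0.32 ± 0.08, adjusted p = 0.00295), and Phkg1 (0.36 ± 0.10, adjusted p = 0.00863) were the other higher members.

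**Figure D4:**
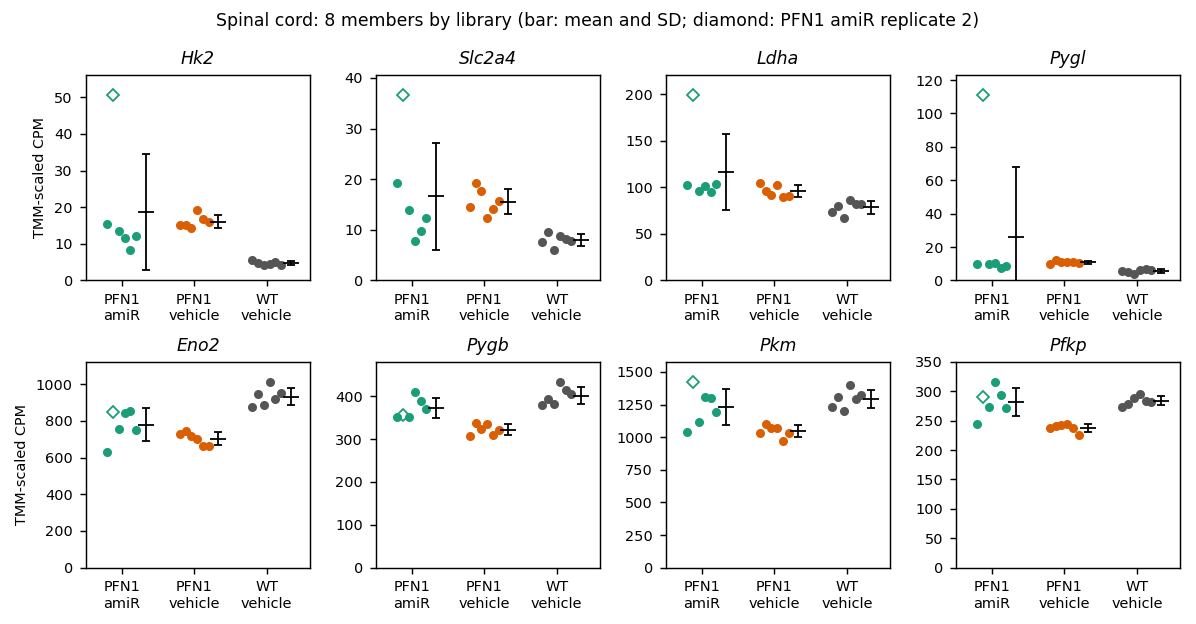
Spinal cord members as TMM-scaled CPM, 1 point a library, for PFN1 amiR, PFN1 vehicle and wild-type vehicle (n = 6 each); bars are mean and SD, axes start at 0, and the open diamond is amiR replicate 2. Hk2, Slc2a4, Ldha and Pygl lie higher in PFN1 vehicle than in wild type without overlap, whereas Eno2, Pygb, Pkm and Pfkp lie lower.

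Pygl and Ldha were higher in PFN1 vehicle without overlap but did not pass in this fit. Pygl had 9.54 to 12.2 CPM (median 10.9) in PFN1 vehicle and 3.61 to 6.8 CPM (median 5.94) in wild type (0.93 ± 0.56, adjusted p = 0.216). Ldha had 89.7 to 105 CPM (median 93.9) in PFN1 vehicle and 66.6 to 85.9 CPM (median 81.1) in wild type (0.29 ± 0.15, adjusted p = 0.141). Without amiR replicate 2, which held 111 CPM of Pygl, both were called, Pygl at 0.97 (adjusted p = 1.6e-05, edgeR) and Ldha at 0.29 (adjusted p = 0.000821).

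The lower members included the neuronal and brain forms. Eno2 had 662 to 744 CPM (median 710) in PFN1 vehicle and 878 to 1010 CPM (median 934) in wild type, without overlap, and fell by 0.41 ± 0.07 (adjusted p = 0.000142, edgeR). Pygb, brain phosphorylase, had 307 to 338 CPM (median 321) in PFN1 vehicle and 379 to 432 CPM (median 400) in wild type, without overlap, and fell by 0.31 ± 0.04 (adjusted p = 1.52e-05). Pygm fell by 0.47 ± 0.09 (adjusted p = 0.000574), Phka1 by 0.34 ± 0.06 (adjusted p = 0.000457), Pfkp, the platelet phosphofructokinase, by 0.25 ± 0.05 (adjusted p = 0.000491) and Pkm by 0.30 ± 0.07 (adjusted p = 0.00156). The remaining 9 lower members (Hk1, Pfkm, Aldoc, Tpi1, Gapdh, Pgk1, Pgam1, Ldhb and Pgm1) fell by 0.16 to 0.32. Across the members, 9 had all PFN1 vehicle libraries below all wild-type libraries and 6 above, where 22.9% of all genes were apart. In these libraries 6 of 7 neuron markers were lower, Eno2 among them, with sums of 4080 to 4690 CPM in PFN1 vehicle and 5920 to 6830 CPM in wild type. Eno2 is both a member and a neuron marker, so every count and sum of that list includes it. Higher were 7 of 8 microglia and macrophage markers, at 665 to 808 CPM against 181 to 256 CPM, and 3 of 6 astrocyte markers, at 7770 to 9270 CPM against 4580 to 5960 CPM. Their part in the change was not tested.

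Between the amiR and PFN1 vehicle arms of spinal cord, 6 members were higher and none lower, where 5.11% of genes were called, 2.92% higher and 2.19% lower. The median was 0.20 over the members and 0 over all genes. Pygb had 351 to 410 CPM (median 364) in amiR and 307 to 338 CPM (median 321) in PFN1 vehicle, without overlap, and was higher by 0.20 ± 0.04 (adjusted p = 0.0133, edgeR). Pgm1 had 83.9 to 115 CPM (median 91.3) in amiR and 70.4 to 83.1 CPM (median 74.9) in PFN1 vehicle, without overlap, and was higher by 0.33 ± 0.07 (adjusted p = 0.0177). Pfkp was higher by 0.24 ± 0.05 (adjusted p = 0.0122), with 245 to 315 CPM in amiR and 225 to 245 CPM in PFN1 vehicle. These 2 members without overlap compare with 2.23% of all genes. Pgk1 (0.20 ± 0.05, adjusted p = 0.0344), Tpi1 (0.28 ± 0.07, adjusted p = 0.0399) and Pkm (0.24 ± 0.07, adjusted p = 0.0491) lost their calls without amiR replicate 2, at 0.16 (adjusted p = 0.0596) for Pgk1, 0.21 (adjusted p = 0.0766) for Tpi1 and 0.18 (adjusted p = 0.0924) for Pkm. There 3 members were called, Pfkp at 0.22, Pygb at 0.21 and Pgm1 at 0.27, among 571 genes, against 1037 of 20307 with that library.

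Other libraries also moved this count. It was 3 without PFN1 vehicle replicate 1, 3, 5 or 6 or amiR replicate 5, 2 without amiR replicate 4, where 242 genes were called in all, and 17, with 16 higher, without amiR replicate 1, where 2539 genes were called. With the treatments of the library names it was 0, as for all genes, and without the 4 libraries concerned it was 1. In the amiR arm 3 of 7 neuron markers were higher, with sums of 4100 to 6060 CPM, against 4080 to 4690 CPM in PFN1 vehicle, and 1 of 8 microglia and macrophage markers was lower, with sums of 326 to 801 CPM against 665 to 808 CPM. Their part was not tested.

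Treated spinal cord differed from wild type in 8 members, 6 higher and 2 lower, where 25.5% of genes were called, 14.6% higher and 11% lower, so members were called no more often than genes at large. Hk2 had 8.31 to 50.6 CPM (median 12.8) in amiR and 4.11 to 5.54 CPM (median 4.63) in wild type, without overlap, and was higher by 1.91 ± 0.32 (adjusted p = 0.000293, edgeR). Without amiR replicate 2, which held the 50.6 CPM, it was higher by 1.38 (adjusted p = 1.12e-06). Slc2a4 (0.97 ± 0.25), Ldha (0.56 ± 0.15) and Pygl (1.99 ± 0.60) were higher too, and without that library by 0.66, 0.34 and 0.72. Pgm2 (0.29 ± 0.08) and Phkb (0.29 ± 0.09) completed the higher members, at 0.34 and 0.36 without it. Eno2 was lower by −0.26 ± 0.07 (adjusted p = 0.00836) and Phka1 by −0.24 ± 0.06 (adjusted p = 0.0101), and without that library by −0.29 (adjusted p = 0.00389) and −0.22 (adjusted p = 0.023). Without amiR replicate 2 the count was 12, 6 in each direction, and Pgam2 turned from 0.43 to −2.89 (adjusted p = 0.0114), at 5.47 CPM in that library and at most 0.893 CPM in every other spinal cord library. In these libraries 4 of 7 neuron markers were lower, the member Eno2 among them, with sums of 4100 to 6060 CPM in amiR and 5920 to 6830 CPM in wild type. Higher were 7 of 8 microglia and macrophage markers, at 326 to 801 CPM in amiR and 181 to 256 CPM in wild type, and 3 of 6 astrocyte markers, at 4980 to 11600 CPM against 4580 to 5960 CPM. Their part was not tested.

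In cortex the transgene arm did not differ detectably. With edgeR, 0 of 34 members were called between PFN1 vehicle and wild type, where 0.0247% of 20278 genes were called (0.0148% higher and 0.00986% lower), and none had a raw p under 0.05. The median was 0.02 over the members. Between amiR and PFN1 vehicle 0 members were called, where 0.0197% of genes were called (0.00986% in each direction), with the lowest adjusted p at 0.0784 for Aldoa (0.28 ± 0.05), and 16 had a raw p under 0.05. In 4 members (Hk1, Aldoa, Tpi1 and Gapdh) every amiR library was above every PFN1 vehicle library, where 0.562% of all genes were apart. DESeq2 called 0 members among 9 genes in the first of these comparisons and 9 members among 340 genes in the second.

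Between amiR and wild-type cortex 4 members were higher and none lower, where 1.12% of genes were called, 0.666% higher and 0.459% lower. Aldoa had 1100 to 1220 CPM (median 1110) in amiR, against 940, 899, 938, 945 and 906 CPM in wild type, without overlap, and was higher by 0.30 ± 0.05 (adjusted p = 0.0238, edgeR). Tpi1 had 408 to 459 CPM in amiR, against 373, 365, 390, 359 and 366 CPM in wild type (0.22 ± 0.05, adjusted p = 0.0458). Hk1 had 376 to 430 CPM in amiR, against 342, 337, 360, 350 and 339 CPM in wild type (0.23 ± 0.05, adjusted p = 0.0477). Pkm had 900 to 950 CPM in amiR, against 769, 779, 799, 780 and 794 CPM in wild type (0.26 ± 0.06, adjusted p = 0.0477). In 9 members every amiR library was above every wild-type library, where 4.73% of all genes were apart. Gapdh (0.20 ± 0.05, adjusted p = 0.0514) and Eno1 (0.24 ± 0.06, adjusted p = 0.0546) lay just outside the threshold. In these libraries 1 of 7 neuron markers was higher and 3 had a raw p under 0.05, with sums of 4920 to 6400 CPM in amiR and 4650 to 5390 CPM in wild type. Of 4 endothelium markers 1 was lower, at 154 to 193 CPM in amiR and 192 to 233 CPM in wild type. With edgeR none of 8 microglia markers was called and 4 had a raw p under 0.05, at 254 to 315 CPM in amiR and 244 to 292 CPM in wild type. None of 5 oligodendrocyte markers was called or had a raw p under 0.05, with a median of −0.31 on the log2 scale and sums of 1910 to 3320 CPM in amiR and 1780 to 5040 CPM in wild type. Their part was not tested.

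**Figure D5:**
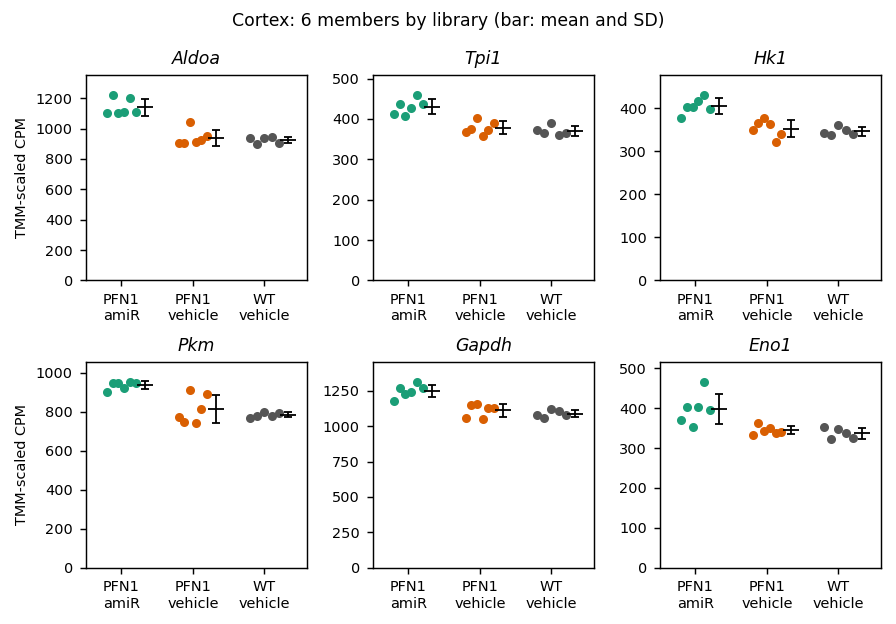
Cortex members as TMM-scaled CPM, 1 point a library, for PFN1 amiR (n = 6), PFN1 vehicle (n = 6) and wild-type vehicle (n = 5); bars are mean and SD, and axes start at 0. Aldoa lies at 1100 to 1220 in amiR, above all PFN1 vehicle and wild-type libraries.

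Most single libraries moved the count between amiR and wild-type cortex. Without wild-type replicate 2, 3, 4 or 5, or amiR replicate 2, 4 or 5, 0 members were called. Without wild-type replicate 1, amiR replicate 3 or 6, or PFN1 vehicle replicate 1 or 6, it was 1, and without PFN1 vehicle replicate 5 it was 2. Without amiR replicate 1 or PFN1 vehicle replicate 2 it was 7, with 6 higher. Without PFN1 vehicle replicate 3 the count between amiR and PFN1 vehicle was 2.

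The effect of the transgene differed between muscle and spinal cord in 28 of 35 members in a joint fit, 19 lower and 9 higher in muscle, where 31% of 22316 genes were called, 14.5% lower and 16.5% higher. Hk2 differed by −2.17 ± 0.30 (log2, adjusted p = 1.81e-07, edgeR), as it fell in muscle and rose in spinal cord, and Slc2a4 by −1.75 ± 0.27 (adjusted p = 1.21e-06). Hk1 differed by 1.10 ± 0.12 in the other direction (adjusted p = 7.89e-10), Eno2 by 1.20 ± 0.17 and Aldoc by 1.28 ± 0.20. Against cortex, 22 members differed, 18 lower and 4 higher in muscle (27.7% of genes, 12.7% lower and 15% higher). Between spinal cord and cortex 4 differed (9.67% of genes, 5.45% higher and 4.23% lower): Hk2 by 1.57 ± 0.31 and Slc2a4 by 0.84 ± 0.28, and Pkm by −0.38 ± 0.11 and Pygm by −0.48 ± 0.16. By amiR effect is meant the amiR arm minus PFN1 vehicle, with vector and amiR not told apart. It differed between muscle and spinal cord in 4 members, 3 higher and 1 lower in muscle (3.04% of genes, 1.74% higher and 1.3% lower). Between muscle and cortex it differed in 6, 5 higher and 1 lower (2.54% of genes, 1.28% higher and 1.26% lower), and between spinal cord and cortex in 0 (0.0672% of genes, 0% higher, edgeR), where 7 had a raw p under 0.05. Without spinal cord amiR replicate 2 in the joint fit, the transgene effect differed between muscle and spinal cord in 29 members, 20 lower and 9 higher.

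Of 63 further genes of the pathway and its neighbours (other hexokinases, lactate transporters, regulators of glycogen, pyruvate dehydrogenase and the pentose phosphate pathway), 59 were tested in muscle. With the transgene 34 of them were lower and 9 higher, with a median of −0.32, where 24.8% of all genes were lower and 25.7% higher. Tigar, which lowers fructose 2,6-bisphosphate, was lower by −1.39 ± 0.09 (adjusted p = 3.31e-08, edgeR), the lactate exporter Slc16a3 by −1.73 ± 0.14 (adjusted p = 1.24e-07) and Rpia of the pentose phosphate pathway by −0.63 ± 0.05 (adjusted p = 2.28e-07). Higher were Pgd of the pentose phosphate pathway (0.83 ± 0.09), the fructose transporter Slc2a5 (4.29 ± 0.54), Pgm5, a phosphoglucomutase relative at cell junctions (1.14 ± 0.15), and Pdk3, which inactivates pyruvate dehydrogenase (1.30 ± 0.19). In the amiR arm of muscle 7 were higher than in PFN1 vehicle and none lower, where 0.767% of all genes were higher and 0.354% lower. The higher ones were led by Slc16a3 (0.79 ± 0.13, adjusted p = 0.0237, edgeR), Rpia (0.28 ± 0.05), Ppp1r3a, a muscle glycogen-targeting subunit of protein phosphatase 1 (0.43 ± 0.09), and Slc37a4 (0.85 ± 0.18).

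In spinal cord 60 of the 63 were tested, and with the transgene 17 were lower and 9 higher, with a median of −0.07. Of all genes, 17.9% were lower and 18.8% higher there. Higher were Hk3, a hexokinase of blood cells (2.58 ± 0.19, adjusted p = 1.46e-07, edgeR), Slc16a3 (1.80 ± 0.14, adjusted p = 1.83e-07), the lactate transporter Slc16a1 (0.63 ± 0.08) and Pgm5 (1.15 ± 0.17). Lower were Tigar (−0.39 ± 0.07), Pdp1 (−0.29 ± 0.05), which activates pyruvate dehydrogenase, Ppp1r3f (−0.24 ± 0.06), the neuronal glucose transporter Slc2a3 (−0.23 ± 0.05) and Pdk3 (−0.49 ± 0.12). In the amiR arm of spinal cord 4 were higher than in PFN1 vehicle and none lower, where 2.92% of all genes were higher and 2.19% lower. Among the higher ones were Dlat (0.47 ± 0.11), Stbd1 (1.00 ± 0.24) and Pdp1 (0.23 ± 0.05). Spinal cord results of these 63 genes were not refitted without amiR replicate 2, the library with fat and fast fibre transcripts. In cortex only Pdk3 was called, higher in amiR than in wild type (0.26 ± 0.06, adjusted p = 0.0482, edgeR), where 1.12% of all genes were called.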

How the data were processed

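Poly(A) RNA-seq of muscle, spinal cord and cerebral cortex was deposited as 1 table of expected counts per gene and library. Per the submitters' processing notes, the builds were GRCh38 and GRCm38, and the tools named are DESeq2 1.34.0, RSEM 1.3.2, the aligner STAR 2.7.2d and bcl2fastq 2.20. The annotation release was not stated. RSEM estimates counts for reads shared between similar genes, so near-identical copies divide reads. Of the deposited expected counts 6.98% were not whole, and all were rounded. Lines outside mouse genes held at most 0.167% of a library and were left out of library sizes and tests. The 52 sample columns were matched to samples by the library name in the description, and each sample's arm was read from its title.

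For each tissue, genes passing filterByExpr were scaled by TMM and tested in R 4.3.3 by edgeR 4.0.16's quasi-likelihood F test with arm and sex, adjusted by Benjamini-Hochberg over all genes tested at a threshold of 0.05. Contrasts between tissues came from 1 joint fit with sex within tissue. Levels of different genes were ranked as CPM per kilobase of merged exons, with CPM without length beside the order for some genes. The scripts were tested on simulated data. The labels do not say which tissues came from 1 animal, so p-values measure the spread between libraries. With totals of 66.5 to 111.9 M counts, counting error limits mainly the members below 1 CPM, such as Aldoc in muscle and Pgam2 in spinal cord. Named are the isozymes and the called members with the smallest adjusted p (up to 6 in each direction). Also named are Atxn2 and up to 4 other pathway genes in each direction. The lower pathway genes of spinal cord with the transgene go past that limit. Members counted in a group are named with it. 1 of the other pathway genes is counted but not reported here. The members, lists and tests were chosen with earlier results of these data known. Alternatives were other scalings, no filter, DESeq2 1.42.0, limma-voom 3.58.1, other covariates, ages, library names, a replicate block and leaving out each library.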

Additional observations from a re-analysis of the deposited data

Results flagged for a closer look

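Of 297 groups of 4 to 10 values (a member in a tissue and arm, with a median of at least 1 CPM), 24 held a library far from its others by Dixon's test, which is 8.08%, where chance gives about 1 in 20. Spinal cord amiR replicate 2, the library with fat and fast fibre transcripts, stood far above the others of its arm by this test for 8 members, with 50.6 CPM of Hk2, 154 CPM of Pfkl, 526 CPM of Eno1, 24 CPM of Eno3, 199 CPM of Ldha, 111 CPM of Pygl, 40.2 CPM of Gys1 and 45.1 CPM of Gbe1. Muscle amiR replicate 1 was lowest for Pfkm at 2450 CPM and for Gapdh at 4910 CPM. In cortex amiR, replicate 5 was highest for Pfkl at 204 CPM and replicate 4 for Slc2a1 at 114 CPM. Spinal cord PFN1 vehicle replicate 6 was lowest for Pfkp at 225 CPM. In cortex PFN1 vehicle, replicate 3 was highest for Aldoa at 1040 CPM and replicate 2 for Aldoc at 768 CPM. Muscle PFN1 vehicle replicate 2 was highest for Ldhb at 305 CPM and for Gys1 at 538 CPM. In wild-type cortex, replicate 4 was lowest for Pgam2 at 0.709 CPM and highest for Pgm2 at 9.11 CPM, replicate 1 was lowest for Eno2 at 653 CPM and replicate 2 highest for Pfkfb3 at 48.5 CPM. Muscle wild-type replicate 3 was highest for Eno3 at 6340 CPM and for Ldha at 3460 CPM, and replicate 1 lowest for Slc2a1 at 6.25 CPM.

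Effects that differed between tissues by the interaction term of the joint fit (edgeR, log2 differences) are listed for the members with the smallest adjusted p. The transgene effect in muscle minus that in spinal cord was 1.10 for Hk1, 1.20 for Eno2, 1.28 for Aldoc, 0.79 for Slc2a1, 0.72 for Pygb and 0.70 for Ldhb. It was −1.67 for Phkg1, −1.42 for Phka1, −1.08 for Phkb, −0.76 for Pfkm, −0.98 for Pgm1 and −1.33 for Ldha. In muscle minus cortex it was 0.90 for Hk1, 1.04 for Aldoc, 0.77 for Eno2 and 0.68 for Slc2a1, and −1.74 for Phka1, −1.30 for Pgm1, −0.96 for Pfkm, −1.05 for Tpi1, −1.09 for Aldoa and −1.29 for Phkg1. In spinal cord minus cortex it was 1.57 for Hk2, 0.84 for Slc2a4, −0.38 for Pkm and −0.48 for Pygm. The amiR effect in muscle minus that in spinal cord was 1.45 for Pfkfb3, 0.75 for Phkg1, 0.65 for Phka1 and −0.54 for Hk1. In muscle minus cortex it was 1.06 for Phka1, 1.58 for Pfkfb3, 0.82 for Pygm, 0.75 for Phkg1, 0.56 for Pgm1 and −0.58 for Hk1.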

How the results depend on the processing

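With each library left out in turn, called members with the transgene numbered 27 to 30 in muscle (28 in the fit as reported) and 14 to 26 (19) in spinal cord, and 9 in spinal cord by library names. Treated against wild type gave 22 to 24 for muscle (23), 0 to 7 for cortex (4) and 7 to 12 for spinal cord (8). The amiR counts ranged over 0 to 18 for muscle (8), 0 to 2 for cortex (0) and 2 to 17 for spinal cord (6), and the cortex transgene count stayed at 0 to 0. The spinal cord amiR count was 2 with unscaled totals, 3 with upper-quartile factors, no filter, RIN as a covariate, only the arms compared or no libraries with fat transcripts (chosen after seeing the data), 12 with DESeq2, 1 with mice of 36 weeks or no conflicting names, and 0 by library names. The muscle amiR count was 18 with DESeq2, 13 with limma-voom, 17 with RIN, 1 without sex and 0 with mice of 36 weeks. Cortex treated against wild type gave 0 with unscaled totals, no filter, RIN or mice of 36 weeks, 1 with upper-quartile factors and 8 with DESeq2, and cortex amiR gave 9 with DESeq2. Between tissues, the amiR effect in muscle and spinal cord differed in 8 members unscaled (4 as reported), and the transgene effect in spinal cord and cortex in 7 with RLE factors (4). In a joint fit without spinal cord amiR replicate 2, chosen after seeing the data, the count for the transgene in spinal cord and cortex was also 7, and the amiR effect in muscle and cortex differed in 10 (6). Directions turned for Pgam2 in treated against wild-type spinal cord (−2.74 with mice of 36 weeks, −2.93 with no fat transcripts, −2.89 without amiR replicate 2, the lowest of −2.89 to 0.98 with each library left out), Pgk1 with the amiR in spinal cord by library names (−0.03), and, unscaled, Gbe1 with the transgene in muscle (0.33), Pfkfb3 in wild-type muscle against spinal cord (−0.03), and Ldhb (−0.72) and Pygl (−1.1) against cortex. The cause was not tested. Leaving out each library of the joint fit was not run.

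Same-numbered libraries correlated in their deviations from the group means between −0.26 and 0.58 in muscle, between −0.42 and 0.63 in cortex and between −0.16 and 0.34 in spinal cord. Between PFN1 vehicle and amiR the values were 0.37, 0.22, 0.63, 0.2, 0.41 and 0.03 in cortex. In muscle they were 0.58, 0.28, −0.17, 0.23 and 0.23. Pairs with wild type lay on both sides of 0 in each tissue. Libraries of different numbers were not compared, so these values cannot tell whether the numbers pair the libraries. With the replicate block, 1 member was called with the amiR in muscle and 0 in treated against wild-type cortex.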
